A study of Homo sapiens with 6 samples.

Results

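The host genes of small nucleolar RNAs (snoRNAs) described here are SNHG1, SNHG5, SNHG6, SNHG7, SNHG8, SNHG12, SNHG15, SNHG16, SNHG18 and GAS5, noncoding genes whose introns carry snoRNAs. The 10 genes were chosen by name, with the values of this same contrast already known, and all 10 of them were found by Entrez identifier among the 12703 genes of the count table. The study asked how raised GCNT1, the enzyme that adds the core 2 branch to O-glycans, alters expression in PC3, an established prostate cancer cell line. The GCNT1 OE group held 3 stable lines made with a GCNT1 lentivirus, and the control group held 3 lines made with a negative-control lentivirus, so all 6 libraries came from transduced PC3 cells. The sources used here do not give the promoter of the construct, or whether each line came from its own transduction and how many clones it held. Libraries were made from polyadenylated RNA, so the counts are read as those of the host RNA and not of the snoRNAs. Spliced and unspliced host RNA were not told apart.

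The deposited read counts summed to between 11392213 and 13825704 per library. GCNT1 had 9, 13 and 8 counts in the control libraries and 13, 16 and 35 in the GCNT1 OE libraries, a log2 fold change of 0.98 (edgeR quasi-likelihood adjusted p = 0.0362). The keratins KRT8, KRT18 and KRT19, VIM, CD44 and EPCAM were counted in every library, and EPCAM was the lowest of them at 51 to 86 counts. KLK2 and KLK3, which PC3 is known to lack or express weakly, were not among the genes analysed. These are bulk samples, in which fewer cells with a transcript and less of it per cell cannot be told apart.

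A snoRNA host gene is transcribed as a long precursor, and the snoRNAs are trimmed out of the spliced introns. Box C/D snoRNAs guide the methylation of ribose in ribosomal and other RNAs, and box H/ACA snoRNAs guide the change of uridine to pseudouridine. The joined exons of many of these genes hold only short open reading frames, and their RNA is known as a target of nonsense-mediated decay (NMD), the pathway that degrades transcripts with early stop codons. Many of these genes start transcription at a pyrimidine tract like that of ribosomal protein genes, the terminal oligopyrimidine (TOP) tract, which ties translation of an RNA to growth signalling through mTOR.

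RefSeq places 34 snoRNAs named SNORD or SNORA inside the 10 genes, of which 26 are box C/D and 8 are box H/ACA by name. A further RefSeq snoRNA in SNHG1, LOC124900306 of 125 bases, has no such name and is not counted here. Of the 34, GAS5 holds 11, SNHG1 holds 8, SNHG12 holds 4 and SNHG16 holds 3. SNHG5 and SNHG7 hold 2 each, and SNHG6, SNHG8, SNHG15 and SNHG18 hold 1 each. The 6 shown here stand for the hosts whose values differed most between the groups and for SNHG5, whose values overlapped. They were read from hg38 on the strand of the host, 5′ to 3′, at RefSeq positions of GRCh38.p14. Capitals mark TGATGA in the first 25 bases (as in the C box) and CTGA in the last 20 bases (the D box) of a box C/D snoRNA, and ACA in the last 8 bases of a box H/ACA snoRNA.
SNORA17A, in SNHG7, chr9:136726747-136726879, minus strand: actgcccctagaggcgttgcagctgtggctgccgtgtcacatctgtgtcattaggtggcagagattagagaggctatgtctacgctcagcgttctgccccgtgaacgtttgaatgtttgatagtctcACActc
SNORA24, in SNHG8, chr4:118279190-118279320, plus strand: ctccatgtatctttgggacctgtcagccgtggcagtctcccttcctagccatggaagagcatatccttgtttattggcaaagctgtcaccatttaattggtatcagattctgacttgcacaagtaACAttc
SNORA9, in SNHG15, chr7:44985378-44985510, minus strand: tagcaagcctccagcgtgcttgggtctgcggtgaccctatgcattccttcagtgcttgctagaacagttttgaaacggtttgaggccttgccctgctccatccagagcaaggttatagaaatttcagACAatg
SNORD25, in SNHG1, chr11:62855565-62855631, minus strand: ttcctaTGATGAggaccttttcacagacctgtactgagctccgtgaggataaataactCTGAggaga
SNORD50A, in SNHG5, chr6:85677294-85677368, minus strand: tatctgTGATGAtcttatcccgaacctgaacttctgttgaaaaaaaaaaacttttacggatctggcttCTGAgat
SNORD123, in SNHG18, chr5:9548827-9548914, plus strand: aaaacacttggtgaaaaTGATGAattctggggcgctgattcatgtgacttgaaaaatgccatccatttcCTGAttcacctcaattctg
Sequence was read for 33 of these 34 snoRNAs. The 25 box C/D snoRNAs read were 60 to 126 bases long, and CTGA stood in the last 20 bases of all 25, while the exact letters TGATGA stood in the first 25 bases of 15. The 8 box H/ACA snoRNAs were 86 to 134 bases long, and 7 of them had ACA in the last 8 bases. Of the hosts with values above those of the control in every GCNT1 OE library, the named snoRNAs of SNHG7, SNHG8 and SNHG15 are box H/ACA, those of SNHG1 and SNHG6 are box C/D, and those of GAS5 are of both kinds.

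The start sites are shown because a TOP start is a known feature of this class of genes. The RefSeq promoter table, on GRCh38.p14, held an entry for 8 of the 10 genes, the exceptions being SNHG6 and SNHG15. Each sequence below runs from 40 bases before the annotated start to 39 bases after it, 5′ to 3′ on the strand of the gene, and the start is base 41. Capitals mark a C followed by at least 4 pyrimidines that begins within 5 bases of the start, and TATAA beginning 20 to 40 bases before it. Both were searched on the strand of the gene only, and they do not overlap in these sequences.
SNHG7, chr9:136728145-136728224, minus strand: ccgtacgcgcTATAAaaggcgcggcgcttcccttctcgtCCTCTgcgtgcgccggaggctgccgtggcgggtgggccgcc
SNHG8, chr4:118278722-118278801, plus strand: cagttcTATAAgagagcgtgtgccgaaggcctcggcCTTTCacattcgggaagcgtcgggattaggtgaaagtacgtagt
SNHG5, chr6:85678694-85678773, minus strand: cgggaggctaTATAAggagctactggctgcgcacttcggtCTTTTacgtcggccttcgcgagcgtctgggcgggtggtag
SNHG16, chr17:76557724-76557803, plus strand: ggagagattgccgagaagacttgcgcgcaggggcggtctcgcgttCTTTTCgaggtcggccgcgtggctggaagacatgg
SNHG18, chr5:9546160-9546239, plus strand: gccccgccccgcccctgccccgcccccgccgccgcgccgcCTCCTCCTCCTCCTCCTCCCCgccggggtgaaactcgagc
SNHG1, chr11:62855846-62855925, minus strand: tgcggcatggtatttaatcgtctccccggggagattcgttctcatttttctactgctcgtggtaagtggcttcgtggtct
The pyrimidine tract was found at 6 of the 8 starts (75%), the exceptions being SNHG1 and GAS5. The RefSeq starts read for SNHG1 and GAS5 were 62855885 and 173869045, while their GENCODE spans begin at 62855953 and 173868882 on the minus strand. Starts at other positions were not searched, so SNHG1 and GAS5 may still have a TOP start. The tract was found at 3351 of 14985 promoter entries of the analysed genes (22.4%), where a gene with several annotated starts has several entries. Among ribosomal protein genes it was found at 58 of 82 (70.7%), and among the other SNHG genes analysed at 4 of 13 (30.8%). Over all 35116 promoters of the table the share was 21.1%. With the tract required within 2 bases of the start, the share was 50% for the 8 host genes, 11.8% for the analysed genes, 62.2% for ribosomal protein genes and 15.4% for the other SNHG genes. TATAA, searched only after these sequences had been seen, was found at 4 of the 8 starts (50%), those of SNHG5, SNHG7, SNHG8 and SNHG12. It was found at 2.73% of the entries of analysed genes, at 3.91% of all promoters, at 7.32% of ribosomal protein genes and at 7.69% of the other SNHG genes. These shares thus describe the starts of these 8 genes and not SNHG genes in general. Both features were present at SNHG7 and SNHG8, whose values were higher in GCNT1 OE, and at SNHG5 and SNHG12, whose values overlapped between the groups. These matches describe letters and were not tested as sites.

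**Figure D1:**
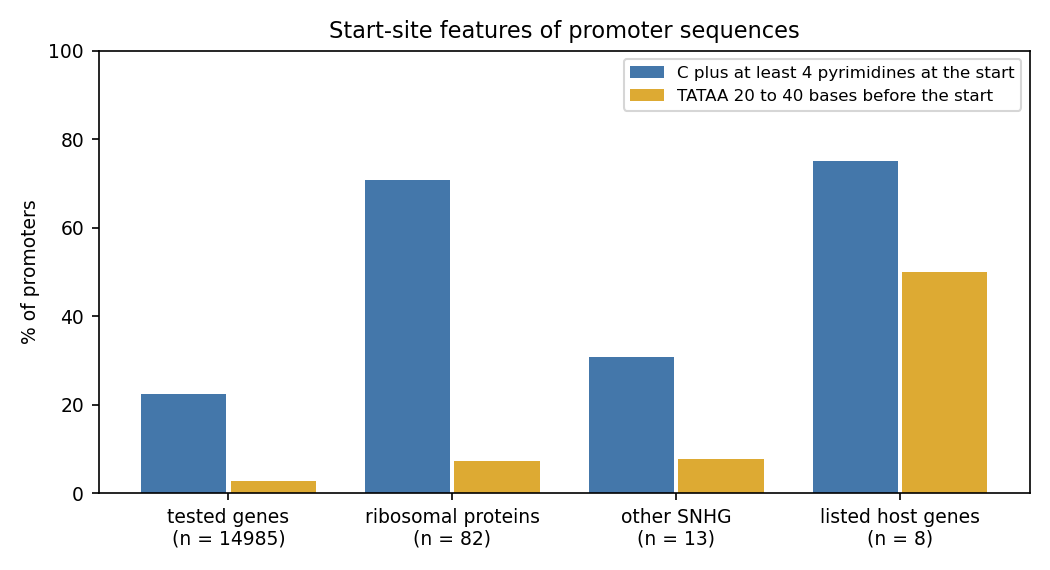
Percent of promoter entries with the pyrimidine tract within 5 bases of the annotated start (blue) and with TATAA 20 to 40 bases before it (yellow), for 14985 entries of analysed genes, 82 of ribosomal protein genes, 13 of other SNHG genes and 8 of the host genes described here. The tract stood at 75% of the 8 starts and at 22.4% of the entries of analysed genes. TATAA was searched only after the 8 sequences had been seen.

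Values are CPM, read counts divided by library sizes scaled with TMM factors, and fold changes are those of edgeR for GCNT1 OE over control. A gene is called at an adjusted p under 0.05 with an absolute log2 fold change over 0.58, the thresholds of the study. Of the 10 host genes, SNHG1, SNHG7, SNHG8 and SNHG15 were called higher, while 8.28% of all genes were. SNHG18 was the 1 called lower, while 11.1% of all genes were. On the adjusted p alone, GAS5 and SNHG6 joined the higher ones to give 6, where 28.3% of all genes passed, and SNHG18 was again the 1 lower, where 29.3% of all genes passed. The 3 GCNT1 OE libraries lay above the 3 control libraries in 6 of the 10 genes, while they did so in 30.9% of all genes, and below them in 1, while they did so in 31.6%. The genes were chosen with this contrast known, so these counts describe the list and nothing is read from them. The median log2 fold change of the 10 genes was 0.37, and that of all genes was 0.001.

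The 10 genes together took 3198, 3081 and 3245 counts in the control libraries and 3864, 4117 and 4459 in the GCNT1 OE libraries. Their summed level was 254, 247 and 274 CPM in the control libraries and 334, 300 and 316 CPM in the GCNT1 OE libraries, and the groups did not overlap. This was a small part of each library, between 0.0242% and 0.0268% of control counts and between 0.0307% and 0.0339% of GCNT1 OE counts.

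**Figure D2:**
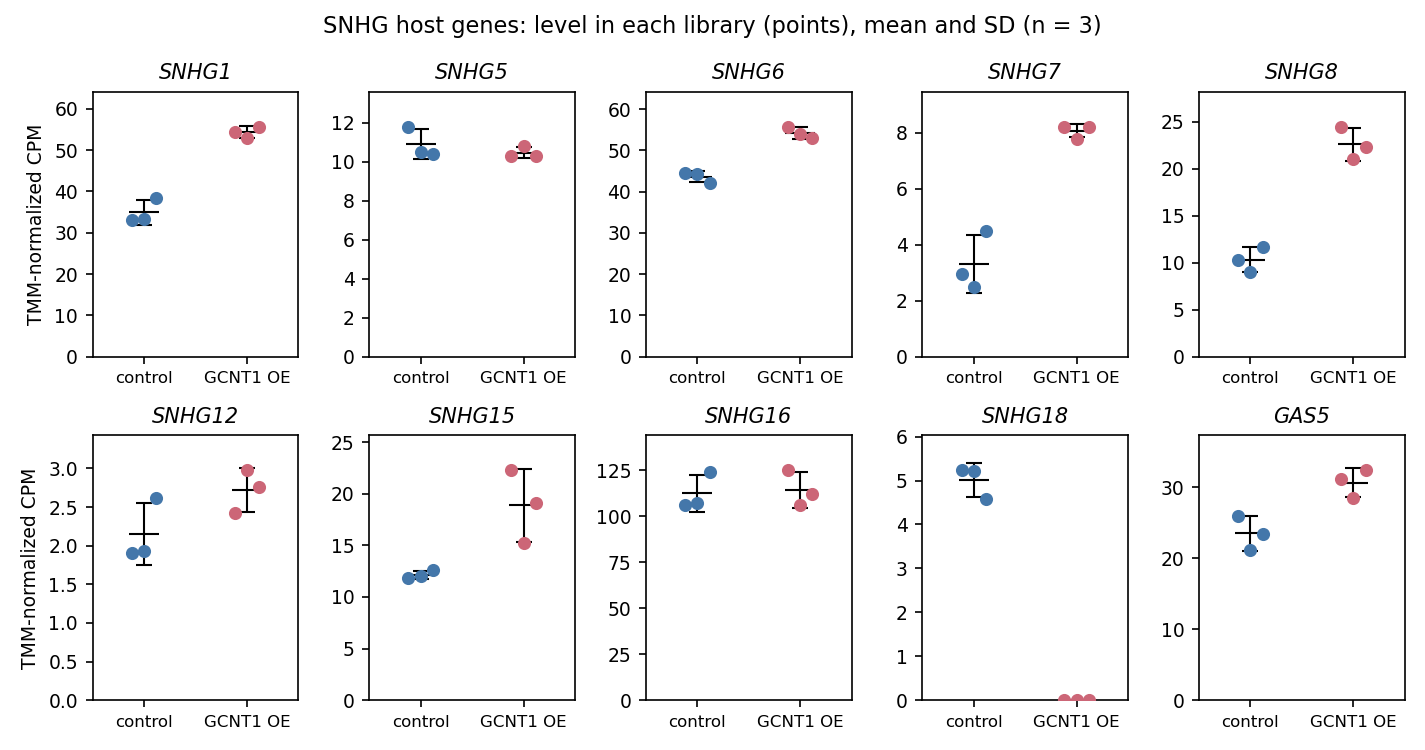
TMM-normalized CPM (linear axis from 0) of each of the 10 host genes in the 3 control libraries (blue) and the 3 GCNT1 OE libraries (red), with the mean and SD of each group (n = 3). SNHG1, SNHG6, SNHG7, SNHG8, SNHG15 and GAS5 have no overlap and are higher in GCNT1 OE, SNHG18 is at 0 in all 3 GCNT1 OE libraries, and SNHG5, SNHG12 and SNHG16 overlap.

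SNHG7 (Entrez 84973), on chr9:136721366-136728184 of hg38 (minus strand), carries SNORA17A and SNORA17B. It had 2.94, 2.49 and 4.48 CPM in the control libraries (37, 31 and 53 counts) and 8.21, 7.79 and 8.22 CPM in the GCNT1 OE libraries (95, 107 and 116 counts). Every GCNT1 OE library was above every control library, and control library 3 was the highest of the controls. The mean went from 3.30 ± 1.05 to 8.07 ± 0.246 CPM (SD, n = 3), a log2 fold change of 1.29 (SE 0.18) or 2.45-fold, and this was the largest rise of the 10. Its neighbours were higher as well. The median log2 fold change of the 50 analysed genes nearest to it, all within 0.842 Mb, was 0.60, with 24 called higher and 1 called lower. The log2 fold change of SNHG7 stood 0.69 above that median. RefSeq also places LOC124900276, a coding gene not among those analysed, across 3591 bases of SNHG7. The part of the region in the change of SNHG7 was not tested.

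SNHG8 (Entrez 100093630), on chr4:118278703-118285316 (plus strand), carries SNORA24. It had 10.3, 9.0 and 11.7 CPM in the control libraries and 24.5, 21.0 and 22.3 CPM in the GCNT1 OE libraries. Every GCNT1 OE library was far above the controls. The mean went from 10.3 ± 1.34 to 22.6 ± 1.73 CPM, with a log2 fold change of 1.13 (SE 0.11) or 2.18-fold. The counts behind it were 130, 112 and 138 in the control libraries and 283, 289 and 314 in the GCNT1 OE libraries. PRSS12, which encodes a serine protease, lies on the opposite strand and overlaps SNHG8 in GENCODE 44, while RefSeq leaves 214 bases between them. PRSS12 rose from 1.44 ± 0.146 to 5.85 ± 0.251 CPM, with a log2 fold change of 2.02 (SE 0.17, adjusted p = 5.88e-07). Whether the counting used strand is not given in the sources used here, and without strand the reads of a gene and its antisense partner cannot be told apart where they overlap. PRSS12 had 65, 84 and 82 counts in the GCNT1 OE libraries, fewer than SNHG8 in each of them. Of the 50 analysed genes nearest to SNHG8, 10 were called higher and 2 lower.

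SNHG1 (Entrez 23642), on chr11:62851978-62855953 (minus strand), carries 8 named box C/D snoRNAs, SNORD25 among them, and is a classic example of a gene conserved in its intronic snoRNAs more than in its exons. It had 33.1, 33.4 and 38.5 CPM in the control libraries and 54.4, 53.0 and 55.7 CPM in the GCNT1 OE libraries. The groups stood well apart, and the GCNT1 OE libraries were close to each other. The mean went from 35.0 ± 3.01 to 54.4 ± 1.36 CPM, with a log2 fold change of 0.64 (SE 0.07) or 1.55-fold. The counts were 417, 416 and 455 in the control libraries and 629, 728 and 786 in the GCNT1 OE libraries. The local median, over the 50 nearest analysed genes, was 0.07, with 3 called higher and 2 called lower.

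SNHG15 (Entrez 285958), on chr7:44983019-44986961 (minus strand), carries SNORA9, and its RNA is known to be short-lived. It had 11.8, 12 and 12.6 CPM in the control libraries and 22.3, 15.2 and 19.1 CPM in the GCNT1 OE libraries. The controls were nearly level, while the GCNT1 OE libraries were spread widely above them. The mean went from 12.2 ± 0.395 to 18.9 ± 3.54 CPM, with a log2 fold change of 0.62 (SE 0.13) or 1.54-fold. Without GCNT1 OE library 1, the highest, the log2 fold change was 0.50 and the gene was no longer called, and without GCNT1 OE library 2, the lowest, it was 0.77. The local median was -0.24, with 2 called higher and 10 called lower, so SNHG15 stood 0.86 above it.

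GAS5 (Entrez 60674), on chr1:173858559-173868882 (minus strand), carries 11 snoRNAs. It is named for its accumulation in growth-arrested cells, and its RNA is a known TOP transcript and NMD target that can bind the glucocorticoid receptor. It had 25.9, 21.1 and 23.4 CPM in the control libraries and 31.1, 28.4 and 32.4 CPM in the GCNT1 OE libraries. The groups did not overlap, with a gap smaller than the range within either group. The mean went from 23.5 ± 2.39 to 30.6 ± 2.04 CPM, with a log2 fold change of 0.38 (SE 0.09) or 1.30-fold, and the counts were 326, 263 and 277 against 360, 390 and 457. RefSeq places ZBTB37 across 964 bases of GAS5 and GAS5-AS1 across 41, and neither was among the genes analysed.

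SNHG6 (Entrez 641638), on chr8:66920561-66926398 (minus strand), carries the box C/D snoRNA SNORD87. It had 44.5, 44.4 and 42.1 CPM in the control libraries and 55.8, 54.1 and 52.9 CPM in the GCNT1 OE libraries. Its libraries were tight within each group and the groups stood clear of each other. The mean went from 43.7 ± 1.35 to 54.3 ± 1.45 CPM, with a log2 fold change of 0.31 (SE 0.06) or 1.24-fold, under the fold threshold. The counts were 560, 553 and 498 against 646, 743 and 747. The local median was -0.22, with 3 called higher and 8 called lower, and SNHG6 stood 0.53 above it. RefSeq places MCMDC2, not among the genes analysed, across 3852 bases of SNHG6.

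SNHG16, SNHG5 and SNHG12 had values that overlapped between the groups. SNHG16 (Entrez 100507246), on chr17:76557727-76670985 (plus strand), carries the SNORD1 snoRNAs and had the most counts of the 10 genes. It had 106, 107 and 124 CPM in the control libraries and 125, 106 and 112 CPM in the GCNT1 OE libraries, with 1 high library in each group. The mean was 113 ± 9.94 and 115 ± 9.45 CPM, with a log2 fold change of 0.02 (SE 0.07). SNHG5 (Entrez 387066), on chr6:85650491-85678932 (minus strand), carries the SNORD50 pair. It had 11.8, 10.5 and 10.4 CPM in the control libraries and 10.3, 10.8 and 10.3 CPM in the GCNT1 OE libraries, and these nearly coincide. The mean was 10.9 ± 0.797 and 10.4 ± 0.285 CPM, with a log2 fold change of -0.06 (SE 0.10). SNHG12 (Entrez 85028), on chr1:28578538-28583132 (minus strand), carries 3 box H/ACA snoRNAs and 1 box C/D snoRNA and had the fewest counts of the genes found in both groups, between 24 and 41 per library. It had 1.91, 1.93 and 2.62 CPM in the control libraries and 2.42, 2.98 and 2.76 CPM in the GCNT1 OE libraries, and only control library 3 reached into the range of the other group. The mean was 2.15 ± 0.407 and 2.72 ± 0.285 CPM, with a log2 fold change of 0.35 (SE 0.20), close to that of GAS5 and SNHG6 with a larger error.

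SNHG18 (Entrez 100505806), on chr5:9546170-9550725 (plus strand), carries SNORD123 and went the other way. It had 66, 65 and 54 counts in the control libraries (5.24, 5.22 and 4.57 CPM) and 0 in each of the 3 GCNT1 OE libraries. A count of 0 allows up to 3 counts per library, or 0.213 to 0.259 CPM, a limit that covers counting error alone. Against that limit the mean control level of 5.01 ± 0.384 CPM was at least 21.8-fold higher. Of the genes called lower, 94 had at most 3 counts in every GCNT1 OE library, and SNHG18 was 1 of 34 with 0 in all of them. SNHG18 was in the count table through its control libraries, so among the genes listed it had to differ.

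SEMA5A, which encodes a semaphorin axon guidance protein, starts 95 bases from SNHG18 on the opposite strand, and it fell with it. SEMA5A had 141, 110 and 107 counts in the control libraries and 0, 1 and 0 in the GCNT1 OE libraries (adjusted p = 2.11e-09). CTNND2, which encodes delta-catenin, lies 1.89 Mb away and had 103, 119 and 92 counts against 2, 2 and 2. The nearest analysed genes beyond SEMA5A were lower too, but far from 0: ATPSCKMT had a log2 fold change of -1.07, the chaperonin gene CCT5 -1.22, CMBL -1.29 and the ubiquitin ligase gene MARCHF6 -1.04. ANKRD33B, at -0.23 (adjusted p = 0.0528), was not called. Of the 50 analysed genes nearest to SNHG18, within 12.8 Mb of chromosome 5, 44 were called lower and 0 higher, and their median log2 fold change was -1.07. Apart from SEMA5A and CTNND2, the other 48 ranged from -4.17 to -0.23. RETREG1, at 7 Mb, was the lowest of these 48. SEMA5A and CTNND2, like SNHG18, were in the table through their control libraries, and the part of the region in the loss of SNHG18 was not tested.

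**Figure D3:**
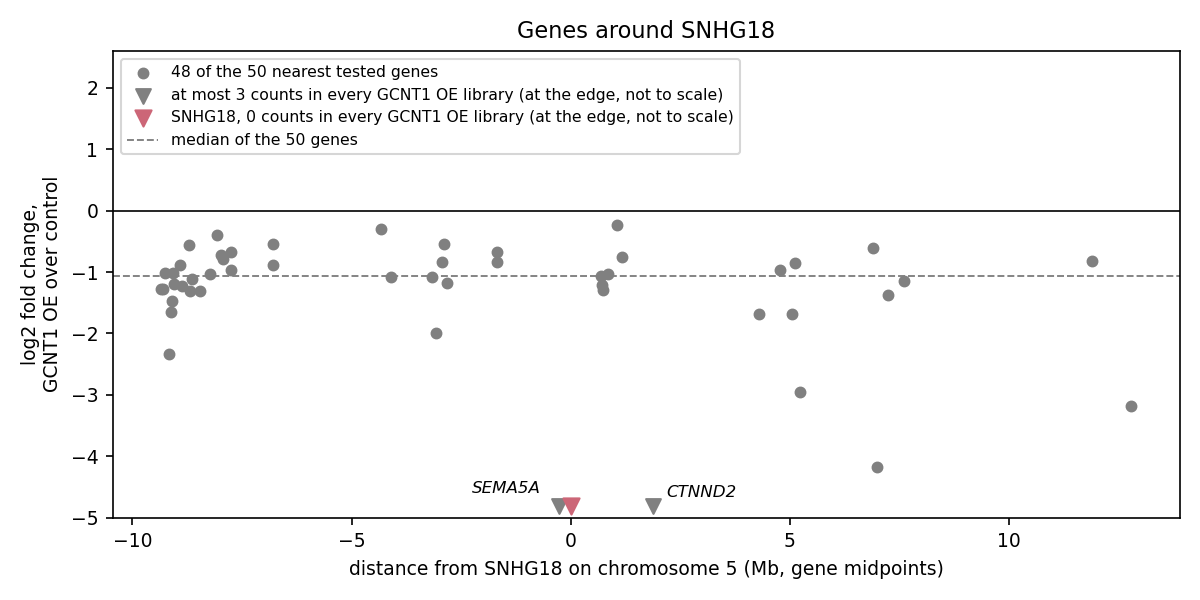
Log2 fold change of the 50 analysed genes nearest to SNHG18 (grey) against distance from it in Mb, with their median of -1.07 as a dashed line. SNHG18 (red), SEMA5A and CTNND2 had at most 3 counts in every GCNT1 OE library and are drawn as triangles at the lower edge, not to scale, and none of the 50 genes lies above 0.

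Outside chromosomes 5 and 9, the 5 host genes that were higher stood above the local medians, which lay between -0.24 and 0.18, though not above every gene nearby. The log2 fold change minus the median of the 50 nearest analysed genes was 0.95 for SNHG8, 0.86 for SNHG15, 0.56 for SNHG1, 0.53 for SNHG6 and 0.44 for GAS5. The local medians themselves were 0.18 at SNHG8, -0.06 at GAS5, -0.11 at SNHG12, -0.04 at SNHG16 and -0.16 at SNHG5. The overlapping values of SNHG16 and SNHG5 thus lay close to those of their surroundings.

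**Figure D4:**
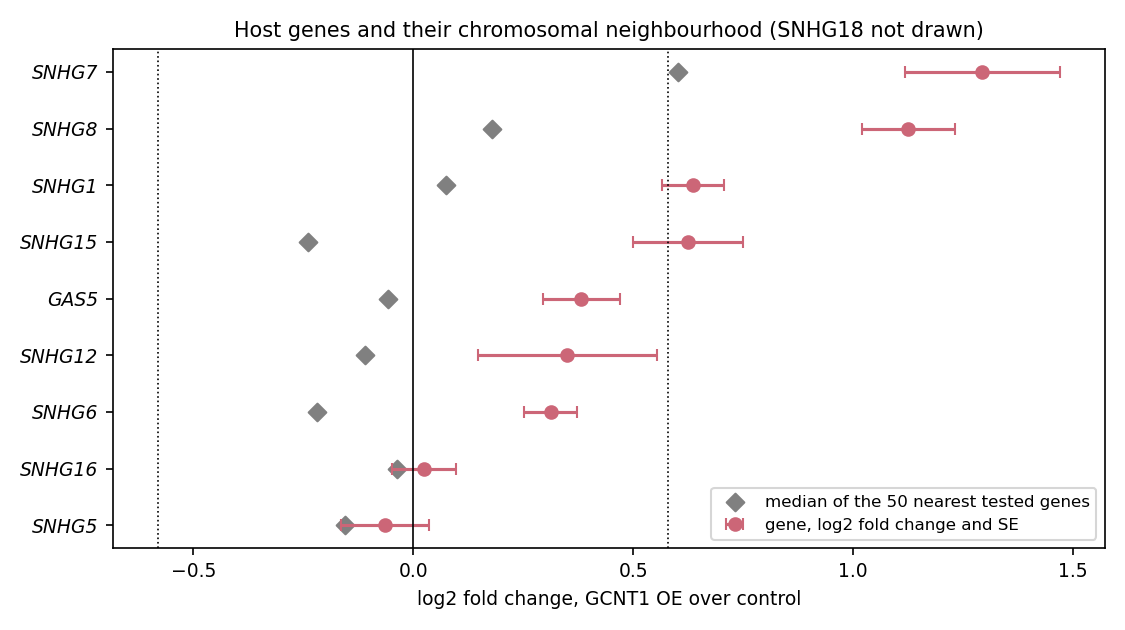
Log2 fold change with SE (red) of 9 host genes and the median log2 fold change of the 50 analysed genes nearest to each (grey diamonds), with dotted lines at the fold threshold of 0.58. SNHG7 is the 1 gene whose local median, 0.60, also passes that line, while SNHG15 and SNHG6 have local medians of -0.24 and -0.22.

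Genes that begin beside or overlap a host gene did not all move with it. SLC3A2, the heavy chain of amino acid transporters at the cell surface, starts 51 bases from SNHG1 on the opposite strand. It went from 195 ± 12.2 to 269 ± 13.6 CPM, with a log2 fold change of 0.46 (SE 0.06, adjusted p = 1.45e-05), in the same direction as SNHG1 and under the fold threshold. ST6GALNAC2, a sialyltransferase of O-glycans, lies on the opposite strand within the GENCODE span of SNHG16, and RefSeq leaves 28 bases between them. It fell from 44.8 ± 0.921 to 16.5 ± 1.21 CPM, with a log2 fold change of -1.44 (adjusted p = 4.12e-09), while the values of SNHG16 overlapped. TRNAU1AP overlaps SNHG12 on the opposite strand, by 8 bases in RefSeq, and showed a log2 fold change of -0.52 (adjusted p = 0.000635). DIPK1B overlaps SNHG7 on the opposite strand, by 149 bases in RefSeq, with 0.21 (adjusted p = 0.113).

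Here the levels of the host genes were compared per length, and their order depended on the length used. Per kb of merged GENCODE exons, SNHG16 was highest in the control libraries at 19.4 ± 1.75 CPM per kb, followed by SNHG6 at 17.3 ± 0.537, whose libraries lay just below those of SNHG16, and SNHG1 at 8.80 ± 0.763. In the GCNT1 OE libraries SNHG6 had 21.5 ± 0.577 CPM per kb and SNHG16 19.8 ± 1.68, whose libraries overlapped, and SNHG1 had 13.7 ± 0.340. Per kb of the canonical spliced transcript, SNHG16 stood apart at 226 ± 20.3 CPM per kb in the control libraries, since this transcript has 498 bases against 5776 of merged exons. GAS5, with 768 bases, then came at 30.6 ± 3.13 CPM per kb and SNHG1 at 30.1 ± 2.61, which did not differ beyond their spread, and SNHG6 at 24.0 ± 0.746. In the GCNT1 OE libraries SNHG1 was at 46.8 ± 1.16 CPM per kb and GAS5 at 39.9 ± 2.66. By their means in the control libraries, SNHG7 and SNHG12 were the lowest on both lengths. There SNHG7 had 0.675 ± 0.213 and SNHG12 0.505 ± 0.0948 CPM per kb of merged exons, which overlap. SNHG5, at 0.865 ± 0.062, overlapped SNHG7 as well. Per kb of the canonical transcript, SNHG7 had 1.4 ± 0.443 and SNHG8 1.68 ± 0.219 CPM in the control libraries, which also overlap. In the GCNT1 OE libraries SNHG7 had 1.65 ± 0.0502 and SNHG12 0.638 ± 0.0661 CPM per kb of merged exons.

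Of the 13 other SNHG genes analysed, 1 was called higher (8.28% of all genes) and 0 lower (11.1% of all genes) by edgeR. The log2 fold change was above 0 in 6368 of all 12703 genes and in 12 of these 13. On the adjusted p alone 3 were higher (28.3% of all genes) and 0 lower (29.3% of all genes), and 6 had GCNT1 OE libraries all above the controls (30.9% of all genes). The counts called higher, on either rule, were at or below the share over all genes. limma-voom and DESeq2 also called 1 of the 13 higher and 0 lower. Over all genes limma-voom called 1056 higher and 1403 lower, and DESeq2 969 and 1343. The median log2 fold change of the 13 SNHG genes was 0.24, with a range from -0.17 to 0.96. SNHG9 rose from 2.37 ± 0.399 to 4.57 ± 0.341 CPM, with a log2 fold change of 0.96 (SE 0.18, adjusted p = 0.000466). SNHG29, the most abundant in counts, went from 190 ± 9.91 to 256 ± 8.09 CPM, with a log2 fold change of 0.43 (SE 0.05), and SNHG33 had 0.24 (adjusted p = 0.0292). SNHG28 had a log2 fold change of 0.59 with an SE of 0.26 (adjusted p = 0.0662), and SNHG31 had 0.52 (adjusted p = 0.125). SNHG4, at 0.39 (adjusted p = 0.104), SNHG3, at 0.32 (adjusted p = 0.0884), and SNHG17, at 0.20 (adjusted p = 0.0664), did not pass either. The values of SNHG21 (0.20), SNHG20 (0.17), SNHG19 (0.09), SNHG11 (0.01) and SNHG10 (-0.17) had adjusted p-values between 0.44 and 0.957. With library size alone as the scaling, 6 of the 13 passed the adjusted p and SNHG28 was also called, and over all genes the number higher on the adjusted p went from 3593 to 4290. Without GCNT1 OE library 1, or without the smallest library of each group, 2 of the 13 were called, SNHG9 and SNHG31. Among noncoding hosts with other names, log2 fold changes were 0.08 for ZFAS1 (adjusted p = 0.21), 0.10 for DANCR (adjusted p = 0.286) and 0.26 for EPB41L4A-AS1 (adjusted p = 0.0404).

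**Figure D5:**
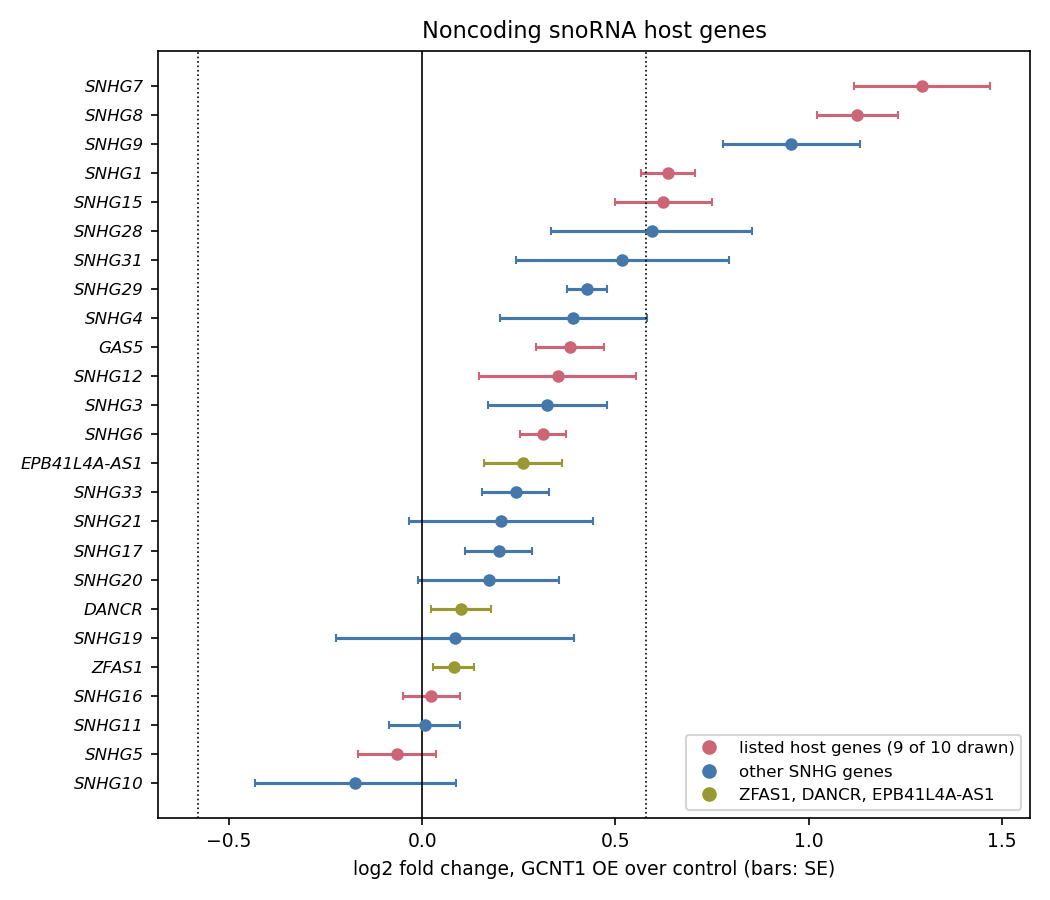
Log2 fold change with SE of 9 of the 10 host genes described here (red, SNHG18 not drawn), 13 other SNHG genes (blue) and ZFAS1, DANCR and EPB41L4A-AS1 (olive), in order of size, with dotted lines at the fold threshold of 0.58 in either direction. Values run from -0.17 for SNHG10 to 1.29 for SNHG7, and SNHG7, SNHG8, SNHG9, SNHG1 and SNHG15 are the called genes past the upper line.

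Protein-coding genes that also carry snoRNAs lay on both sides of 0. GENCODE places a snoRNA inside 159 analysed coding genes, with 82 above 0 and 77 below, of which 4 were called higher and 8 lower, with a median log2 fold change of 0.02. Both counts lay below the shares over all genes, 8.28% and 11.1%. MAN1B1 (0.78, adjusted p = 1.44e-07) and TIMM23B (0.71, adjusted p = 0.000445) had the largest rises. SLC47A1 and HTR2C had the largest falls, and both were near the limit of 3 counts in GCNT1 OE, so no fold is given. SLC47A1 had 71, 72 and 72 counts in the control libraries and 1, 0 and 0 in the GCNT1 OE libraries (adjusted p = 8.18e-09). HTR2C had 42, 57 and 38 against 0, 4 and 1 (adjusted p = 1.14e-06). Both were in the count table through their control libraries, so among the genes listed they had to differ. Among 44 coding hosts listed from general knowledge, 0 were called in either direction by edgeR, limma-voom or DESeq2. By the adjusted p alone 9 were higher and 16 lower in edgeR. Over all genes the shares on the adjusted p alone were 28.3% and 29.3%. GENCODE places a snoRNA inside 19 noncoding analysed genes other than the 10, of which 1, SNHG9, was called higher, and 2, TMEM161B-DT (-1.26, adjusted p = 6.89e-05) and PWAR5 (-0.87, adjusted p = 0.0317), were called lower. DESeq2 gave the same counts and limma-voom 1 and 1. PWAR5 had 66, 61 and 25 counts in the control libraries and 15, 36 and 38 in the GCNT1 OE libraries, which overlap. It was not called with limma-voom (adjusted p = 0.0726), without control library 1 (0.137) or 2 (0.129), or without GCNT1 OE library 1 (0.0648).

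The genes of proteins that assemble snoRNAs into particles went in both directions. Of 19 analysed snoRNP genes, 1 was called higher and 0 lower by each of edgeR, limma-voom and DESeq2, and their median log2 fold change was 0.07. On the adjusted p alone 7 were higher and 4 lower. The shares over all genes were 8.28% and 11.1% called, and 28.3% and 29.3% on the adjusted p alone. SHQ1, which chaperones dyskerin, rose from 19.0 ± 2.14 to 30.5 ± 0.864 CPM, with a log2 fold change of 0.68 (adjusted p = 1.89e-05). Dyskerin itself, DKC1, the pseudouridine synthase of box H/ACA particles, had a log2 fold change of 0.25, while NHP2, another core protein of those particles, had -0.44 (adjusted p = 3.08e-05). Among box C/D core proteins, the methyltransferase FBL had 0.04 and NOP56 -0.30 (adjusted p = 0.000234). Of 83 cytosolic ribosomal protein genes, a class known for TOP starts, 1 was called higher (RPL22L1, 0.68, adjusted p = 3.45e-05) and 1 lower (RPL37, on chromosome 5, -0.82, adjusted p = 9.58e-09), while 8.28% and 11.1% of all genes were. By the adjusted p alone 25 were higher and 23 lower, where the shares over all genes were 28.3% and 29.3%. Their median log2 fold change was 0.03, beside 0.37 for the 10 host genes, and no test of that difference was made.

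NMD genes were listed because the spliced RNA of many host genes is degraded by that pathway. Of 20 NMD factors, 0 were called higher and 1 was called lower by each of edgeR, limma-voom and DESeq2. PNRC2, an adaptor between the NMD factor UPF1 and decapping, fell with a log2 fold change of -0.68 (adjusted p = 3.18e-07). The median over the 20 was 0.05, and on the adjusted p alone 6 were higher and 4 lower. Of 9 known NMD target genes, 2 were called higher and 0 lower by each of the 3 tools, with a median of 0.44. On the adjusted p alone 5 were higher and 0 lower. Over all genes 8.28% were called higher and 11.1% lower, and on the adjusted p alone 28.3% were higher and 29.3% lower. ATF3 rose from 6.46 ± 1.30 to 13.2 ± 1.25 CPM (log2 fold change 1.03, adjusted p = 3.02e-05). UPP1 rose from 24.5 ± 1.31 to 49.3 ± 6.13 CPM (1.01, adjusted p = 8.68e-07). ATF3 is also a stress response gene. On the same list the log2 fold change was 0.44 for DDIT3 (adjusted p = 0.000159), 0.576 for GADD45B (adjusted p = 3.84e-05) and 0.01 for ATF4 (adjusted p = 0.832). Of the 9 genes, 8 lay above 0 and 1 below. The part of NMD or of stress in these values was not tested.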

How the data were processed

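RNA of 3 control and 3 GCNT1 OE PC3 lines was sequenced from stranded mRNA libraries. The deposited values are raw counts per gene, which the authors made with featureCounts from reads trimmed by Cutadapt and mapped by HISAT2 on hg38, with no normalization or pooling. The annotation, strand setting and low-count filter are not given in the sources used here. All 6 columns were used, 1 per label.

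The main test was that of edgeR 4.0.16 in R 4.3.3 (TMM, filterByExpr, quasi-likelihood test, Benjamini-Hochberg adjustment over 12703 genes, no block). filterByExpr kept every gene. The SE is the log2 fold change divided by the root of the F statistic. The thresholds were an adjusted p of 0.05 and a log2 fold change of 0.58. Libraries of a group differed by more than sampling noise (chi-square per degree of freedom 1.65 to 5.61), and each was counted as 1 sample. That spread may be between cultures or preparations alone. The SE and adjusted p need therefore not cover the spread between transductions. limma 3.58.1 (voom), DESeq2 1.42.0, other scalings and filters, a replicate block and each library left out were alternatives. The host genes and all lists were chosen with earlier results of these data known. Named genes were GCNT1, all 10 host genes, their divergent or overlapping partners, every other SNHG gene and noncoding host listed, up to 2 called genes with the largest rise and 2 with the largest fall in each other list, and the 3 genes most like each of the 2 host genes with the highest mean CPM. The genes near SNHG18, and single uncalled genes given for their role, were chosen after their values were seen. Part of what this rule and the marker list give is not reported here.

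Symbols were matched for 12661 genes and positions in GENCODE 44 for 12556. snoRNA and promoter coordinates are those of RefSeq on GRCh38.p14, which shares its primary chromosomes with hg38, read in Python 3.11.15. TATAA was searched after the sequences had been seen.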

Additional observations from a re-analysis of the deposited data

How the results depend on the processing

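SNHG1, SNHG7, SNHG8 and SNHG15 were called higher with limma-voom and DESeq2, with RLE or library-size scaling and with a filter of 10 counts in every library, and SNHG18 lower in all of these but the last, which leaves it out. No filter and a filter of 0.5 CPM in 3 libraries keep the same 12703 genes as the main analysis, so their values are identical by construction. The adjusted p alone gave 7 host genes, 7314 genes in all instead of 2457, and 173 list genes instead of 23. Leaving out 1 library in turn gave 4 to 5 host genes, 2409 to 2511 genes and 21 to 25 list genes. SNHG15 was lost without GCNT1 OE library 1, and without the smallest library of each group (log2 fold change 0.52), an alternative chosen after seeing the data. Over the single libraries left out, the log2 fold change ran from 1.13 to 1.57 for SNHG7, 1.04 to 1.22 for SNHG8, 0.60 to 0.71 for SNHG1, 0.31 to 0.47 for GAS5 and 0.29 to 0.33 for SNHG6. SNHG16 ran from -0.04 (without GCNT1 OE library 1) to 0.10 and SNHG5 from -0.10 to 0.01, so neither has a stable sign.

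With library size alone the median of all genes was 0.06 and the adjusted p alone gave 4290 genes higher and 3144 lower, beside 3593 and 3721 with TMM. The filter at 10 counts in every library left 1980 genes called. The labels number the libraries of both groups 1 to 3, but same-numbered libraries did not deviate together (correlations -0.27, -0.002 and -0.11). With 3 libraries a group, these correlations cannot decide whether same-numbered libraries shared a batch or preparation. With the replicate block 2423 genes, 5 host genes and 23 list genes were called, and no library correlated best with its own number. With 3 libraries a group and 24 to 53 counts, the levels of SNHG12 and of SNHG7 in the controls are the least precise.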

Other observations

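Genes of the glucocorticoid receptor axis were listed because GAS5 RNA can bind that receptor. NR3C1, the receptor, showed a log2 fold change of -0.02 (adjusted p = 0.844). Of the 7 genes of this list that were analysed, NR3C1 included, 1 was called higher and 2 lower, where 8.28% and 11.1% of all genes were. FKBP5, a chaperone of the receptor, rose from 22.9 ± 1.44 to 34.8 ± 1.86 CPM (0.60, adjusted p = 2.17e-05). It lay at the fold threshold and was not called without control library 3 (0.55), without GCNT1 OE library 1 (0.55) or without the smallest library of each group (0.50). KLF9 fell from 30.0 ± 2.03 to 1.51 ± 0.167 CPM (-4.29, adjusted p = 1.93e-11) and the kinase gene SGK1 from 25.4 ± 2.78 to 15.3 ± 0.814 CPM (-0.73, adjusted p = 2.63e-05). TSC22D3 (-0.26, adjusted p = 0.0423), PER1 (0.08, adjusted p = 0.315) and DUSP1 (0.16, adjusted p = 0.174) were not called. The part of GAS5 in these values was not tested.

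Of 16 genes that sense growth signals through mTOR or bind TOP RNAs, 0 were called by edgeR, limma-voom or DESeq2, where edgeR called 8.28% of all genes higher and 11.1% lower. The count was 1 with library size alone, without control library 1, without GCNT1 OE library 1 and without the smallest library of each group. On the adjusted p alone 8 were higher and 3 lower in edgeR, where 28.3% and 29.3% of all genes were. Their median log2 fold change was 0.14. LARP1, which binds the TOP tract, showed a log2 fold change of -0.09 (adjusted p = 0.083).

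The likeness of other genes to the 2 host genes with the highest mean CPM, SNHG16 and SNHG6, was measured with Pearson's r of log2 CPM over the 6 libraries, as a description. For SNHG6 the genes most like it were FAM111B (0.999), FKBP5 (0.998) and GYG1 (0.998), and 2188 genes had an r over 0.9. FAM111B, FKBP5 and GYG1 had log2 fold changes of 0.45, 0.60 and 0.62. The groups of SNHG6 did not overlap, so its r largely restates the difference between the groups. For SNHG16, whose groups overlapped, the genes most like it were NAPA (0.993), TMEM161A (0.988) and CDK16 (0.987), and 151 genes had an r over 0.9.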
